A study of Mus musculus with 3 samples.

Results

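The genes described here act in efferocytosis, the engulfment of apoptotic cells and their fragments. They were the 10 genes Mertk, Axl, Lrp1, Gas6, Pros1, Mfge8, Calr, Elmo1, Dock1 and Gulp1, taken by their GENCODE M21 symbol from a table of 56651 mRNA transcripts. Of the 10, 9 had at least 1 transcript in the table, with 38 transcripts in all, and Gulp1 had none. The table covered 16043 genes. The rule used names only and no measured value.

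The RNA came from apoptotic bodies (ABs), the membrane-bound fragments that dying cells shed. They came from bone marrow macrophages (BMM-ABs), preosteoclasts (pOC-ABs) and mature osteoclasts (mOC-ABs), with 1 library of each, so no difference could be set against a spread between replicates. All cells were grown from the bone marrow of male C57BL/6 mice of postnatal week 11, first with M-CSF at 50 ng/mL for 72 h, which gave the BMMs. Preosteoclasts then received M-CSF at 30 ng/mL and RANKL at 100 ng/mL for 24 h, and mature osteoclasts the same for at least 72 h. Per the labels, apoptosis was induced in every culture with 500 µM alendronate for 12 h, whereas the study's methods name staurosporine. The paper also gives a longer RANKL time for mature osteoclasts, another M-CSF dose beside RANKL and a shorter M-CSF time for BMMs, and the sample titles name the cells rather than their ABs. Whether the cultures pooled several mice was not given in the sources used here.

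Phagocytes recognise a dying cell by eat-me signals on its surface, chiefly phosphatidylserine. Some receptors bind such signals directly, while others, among them the kinases MerTK and Axl, need a soluble bridging protein that holds phosphatidylserine at one end and the receptor at the other. Adaptor proteins then pass the signal to the actin cytoskeleton. Macrophages are the main engulfing cells of the marrow, and osteoclasts arise from the same precursors.

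The mRNA reads summed to between 7387317 and 9100082 per library, and 3 reads, the limit that a count of 0 allows, amounted to between 0.330 and 0.406 reads per 1000000 mRNA reads, written CPM below. All intervals below are 95% intervals that cover counting error only. Macrophage markers summed to 5943 CPM in BMM-ABs against 2867 for pOC-ABs and 1842 for mOC-ABs, and osteoclast markers to 700, 963 and 2808 CPM, respectively. Acp5 had 88, 292 and 2157 reads in the same order, but Calcr had no row and Itgb3 was at 6, 3 and 0 reads. Markers of neutrophils had no row, and those of osteoblasts and stroma summed to between 3.89 and 5.71 CPM, with Col1a1 without a row. A lower level in a bulk library can come from fewer ABs of a kind or from less RNA in each, and these cannot be told apart. Mitochondrially encoded transcripts took 5.76% of the mRNA reads in pOC-ABs against 2.90% in BMM-ABs and 2.87% in mOC-ABs.

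The levels of the 9 listed genes ran from 0 reads for Mertk in BMM-ABs, and 0.0629 FPKM for Mertk in pOC-ABs, to 255 FPKM for Lrp1 in BMM-ABs. Levels were compared between genes as summed FPKM, the deposited reads per transcript length and scaled to the mRNA total, added over the transcripts of a gene. In BMM-ABs the order was Lrp1 (255 FPKM), Calr (216), Elmo1 (40.5), Gas6 (33.2), Dock1 (25.4), Mfge8 (22.8), Pros1 (1.96) and Axl (0.258), with Mertk at 0 reads. Only Dock1 and Mfge8 had overlapping intervals among these neighbours. These intervals are those of the total reads of a gene, scaled to its FPKM. They weigh all reads alike and can understate the error of a sum over transcripts of unequal length. In pOC-ABs Calr (164 FPKM) stood above Lrp1 (139 FPKM), and the intervals of Mfge8, Dock1 and Gas6 overlapped from one to the next. In mOC-ABs Lrp1 (193 FPKM) and Calr (187 FPKM) could not be ordered, nor could Mfge8 be ordered against Elmo1 or Gas6, nor Pros1, Axl and Mertk among themselves. The first place of Lrp1 in BMM-ABs rested on a short retained-intron transcript, Lrp1-208, which added 45.4 FPKM from 315 reads. Its main coding transcript Lrp1-201 alone stood at 195 FPKM, against 200 for Calr-201. Lrp1 ranked 210 and Calr 241 by FPKM among 12394 protein-coding genes in BMM-ABs, and 301 and 318 in mOC-ABs.

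**Figure D1:**
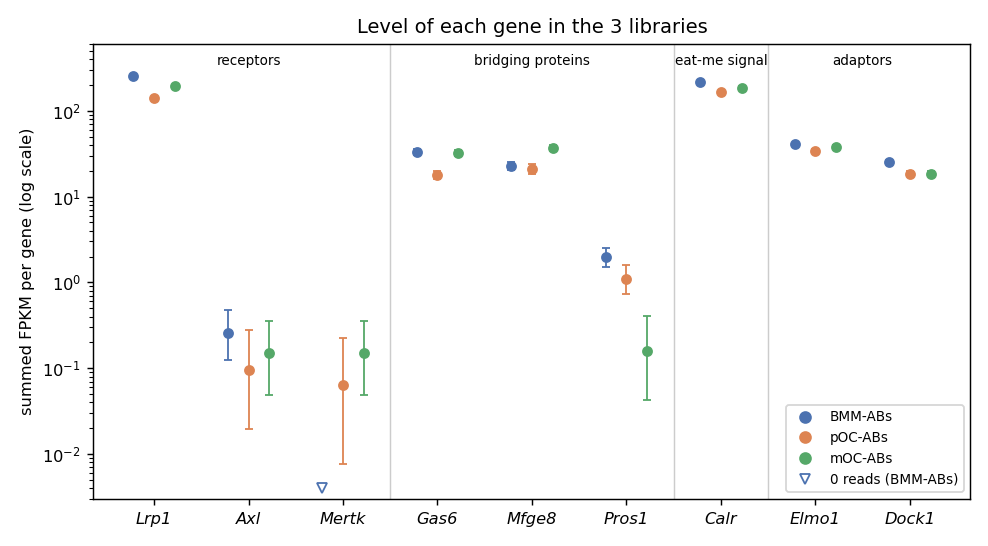
Summed FPKM of each gene (log scale) in the 3 kinds of ABs, grouped by role. Points are single libraries and bars 95% counting intervals of the total reads of the gene, scaled to FPKM. The open triangle marks 0 reads. Lrp1 and Calr stood between 139 and 255 FPKM in all 3 libraries, while Axl and Mertk were at 0.258 FPKM or lower.

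The members together held 35394 reads in BMM-ABs against 15620 for pOC-ABs and 21782 for mOC-ABs. This was 0.389%, 0.211% and 0.283% of the mRNA reads. Lrp1 alone made up 76.0%, 66.4% and 70.6% of these reads, so the sum largely followed that 1 gene.

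The 3 comparisons were pOC-ABs against BMM-ABs (G1), mOC-ABs against BMM-ABs (G2) and mOC-ABs against pOC-ABs (G3). They share libraries and are therefore not independent of each other. A gene was called when its ratio of CPM was above 2 or below 0.5, and calls were counted over the 7 members with at least 20 reads in the 3 libraries together, which left out Mertk and Axl. In G1, 1 of the 7 passed, Lrp1, lower in pOC-ABs, against 11.1% of the 12809 genes with at least 20 reads (4.94% above 2 and 6.20% below 0.5). All 7 had a ratio below 1, Elmo1 so barely that it kept this sign in 8 of 11 alternatives, and the median log2 ratio was -0.49 against -0.02 for all genes. The interval of 6 excluded equal levels. The share of all genes for which this held was not taken, and with many reads even a small difference passes counting error. Relative to genes of like length and GC content the count was also 1, but the gene was Pros1 (-1.07) and no longer Lrp1 (-0.54). In G2, 1 of the 7 passed, Pros1, lower in mOC-ABs, against 13.4% of all genes (4.25% above 2 and 9.12% below 0.5). The median of the members was -0.18 against -0.05, and 5 intervals excluded equal levels, again without a share of all genes. In G3, 2 of the 7 passed, Mfge8 higher and Pros1 lower in mOC-ABs, against 10.6% of all genes (3.62% above 2 and 7.00% below 0.5), with medians of 0.27 and -0.05. Over only 7 genes, 1 or 2 calls beside such shares are no result about the group. Summed macrophage markers were lower and summed osteoclast markers higher in mOC-ABs, as given above, but not every marker followed its sum. Of 12 osteoclast markers with at least 20 reads, 9 were above 2 in G2, while Ostm1 (-0.45) and Clcn7 (-0.16) were lower. Of 9 macrophage markers, 5 were below 0.5 in G3, while Csf1r (0.50) was higher. The part of these markers in the ratios of the members was not tested.

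**Figure D2:**
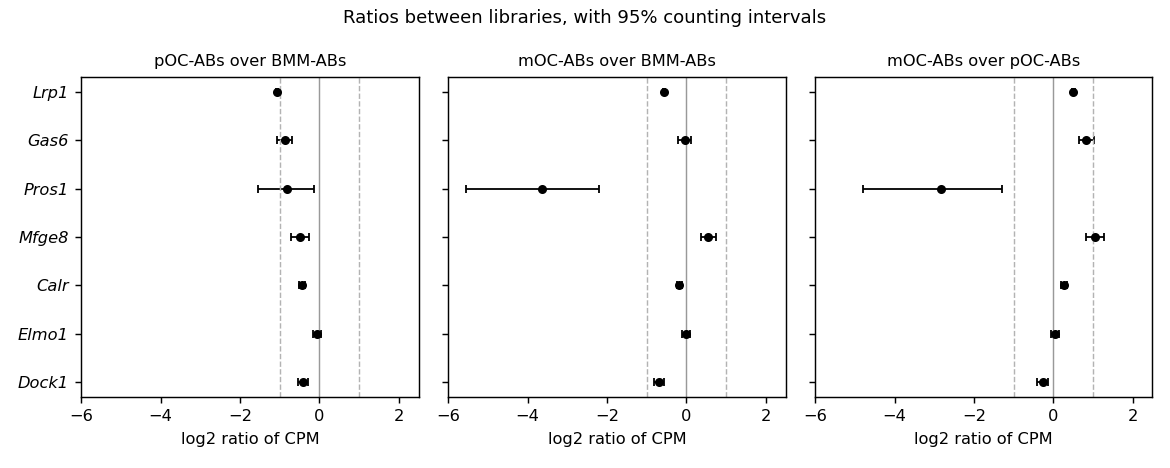
Log2 ratio of CPM for the 7 genes with at least 20 reads in the 3 comparisons. Points are ratios between single libraries, bars 95% counting intervals, and the dashed lines mark 2-fold. Lrp1 (-1.07) lay past the line in pOC-ABs over BMM-ABs, and Pros1 lay past it in both comparisons of mOC-ABs.

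**Figure D3:**
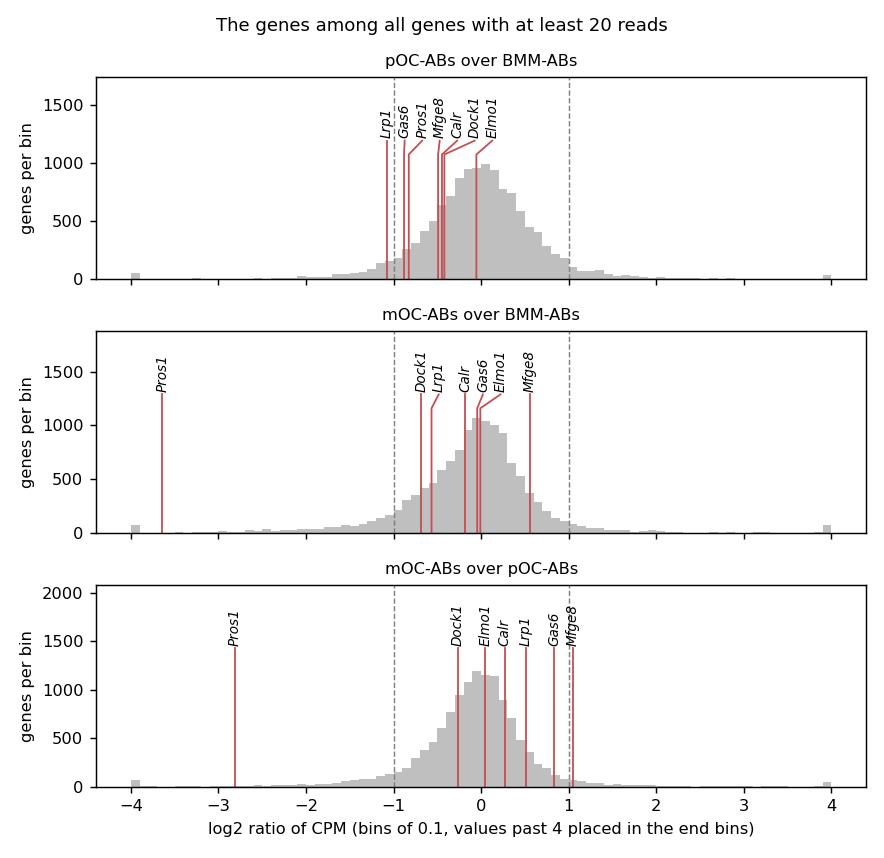
Histograms of the log2 ratio of CPM over the genes with at least 20 reads, in bins of 0.1, with the 7 genes as red lines and 2-fold as dashed lines. All 7 lay left of 0 in pOC-ABs over BMM-ABs, and 5 of 7 lay right of 0 in mOC-ABs over pOC-ABs.

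Among the receptors, Lrp1 carried nearly all reads. Lrp1 (ENSMUSG00000040249, GRCm38 chr10:127538161-127621148, minus strand) encodes a very large endocytic receptor that binds calreticulin on dying cells and also takes up many other ligands. It had 26893 reads in BMM-ABs against 10367 for pOC-ABs and 15370 for mOC-ABs, or 2955, 1403 and 1995 CPM. BMM-ABs were thus highest and pOC-ABs lowest, with mOC-ABs in between. The log2 ratio was -1.07 (-1.11 to -1.04) in G1, -0.57 (-0.60 to -0.54) in G2 and 0.51 (0.47 to 0.54) in G3. The G1 call rested on the scale used, because the ratio came under 2-fold with summed FPKM and when the libraries were scaled to protein-coding genes without mitochondrially encoded ones.

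Lrp1-201, the main coding transcript of 14888 nucleotides in 89 exons, held 98.1% of the reads of the gene in BMM-ABs against 96.4% for pOC-ABs and 97.1% for mOC-ABs. The retained-intron transcripts Lrp1-208 (315, 203 and 287 reads) and Lrp1-204 (73, 49 and 51 reads) came next. Transcript length and base composition moved with the G1 ratios over all genes. The median log2 ratio of protein-coding genes went from 0.30 for main transcripts of up to 1000 nucleotides to -0.29 above 10000, and from 0.22 at up to 45% GC to -0.22 above 55%. Lrp1 (57.9% GC) fell in the class of main transcripts above 10000 nucleotides and above 55% GC. The other 24 protein-coding genes of that class had a median of -0.54 in G1 and -0.52 in G2. A lower G2 ratio than that of Lrp1 was found for 50.0% of them. Relative to them Lrp1 stood at -0.54, -0.05 and 0.44 in G1 to G3. The part of length and GC content in the result was not tested.

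Mertk and Axl encode receptor tyrosine kinases that bind phosphatidylserine through bridging proteins, Gas6 for both and protein S for MerTK. Mertk (chr2:128698956-128802894, plus strand) had 0 reads in BMM-ABs against 2 for pOC-ABs and 5 for mOC-ABs, all on Mertk-201. A count of 0 allows up to 3 reads in BMM-ABs. The counting interval of the ratio of mOC-ABs to BMM-ABs began just above equal levels, with a log2 value of 0.11. Axl (chr7:25757273-25788705, minus strand) had 10, 3 and 5 reads, all on Axl-201, and every interval of its ratios included equal levels. Neither gene reached 20 reads over the 3 libraries. Tyro3, the remaining kinase of this family, was at 4, 0 and 1 reads. Transcripts of all 3 kinases were therefore at or near the detection limit in these libraries, where no difference between ABs could be resolved for Axl.

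The bridging protein genes Gas6 and Mfge8 had more reads than each of these kinases in every library. Pros1 did so in BMM-ABs and pOC-ABs only, and in mOC-ABs it had 4 reads against 5 for Mertk and 5 for Axl. Gas6 (ENSMUSG00000031451, chr8:13465374-13494490, minus strand) encodes the vitamin K-dependent ligand of the family, and it had 1 listed transcript, Gas6-201. It had 769 reads in BMM-ABs against 339 for pOC-ABs and 631 for mOC-ABs, or 84.5, 45.9 and 81.9 CPM. Gas6 was lowest in pOC-ABs, and BMM-ABs and mOC-ABs did not differ beyond counting error. The log2 ratio was -0.88 (-1.07 to -0.69) in G1, -0.05 (-0.20 to 0.11) in G2 and 0.84 (0.64 to 1.03) in G3. None of these point values passed 2-fold. Genes of like length and GC content had a median of -0.33 in G1 and 0.13 in G3, and their part in the values of Gas6 was not tested.

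Pros1 (ENSMUSG00000022912, chr16:62854307-62929346, plus strand) encodes protein S, an anticoagulant that also serves as a ligand of MerTK. Its only listed transcript, Pros1-201, had 59 reads in BMM-ABs against 27 for pOC-ABs and 4 for mOC-ABs, or 6.48, 3.66 and 0.519 CPM. The level was lower in pOC-ABs than in BMM-ABs and lower again in mOC-ABs, each step beyond counting error. The log2 ratio was -0.83 (-1.54 to -0.15) in G1, -3.64 (-5.57 to -2.21) in G2 and -2.82 (-4.79 to -1.30) in G3. Pros1 passed 2-fold in both comparisons of mOC-ABs, on few reads, and in G2 0.217% of the other genes of like length and GC content had a lower ratio.

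Mfge8 (ENSMUSG00000030605, chr7:79133768-79149060, minus strand) encodes MFG-E8, which binds phosphatidylserine and, through an RGD motif, integrins on the phagocyte. It had 421 reads in BMM-ABs against 243 for pOC-ABs and 524 for mOC-ABs, or 46.3, 32.9 and 68.0 CPM. Of the 7 members with at least 20 reads, Mfge8 alone was higher in mOC-ABs than in BMM-ABs. The log2 ratio was -0.49 (-0.73 to -0.26) in G1, 0.56 (0.37 to 0.74) in G2 and 1.05 (0.83 to 1.27) in G3. The G3 value was just past 2-fold, and it came under 2-fold relative to genes of like length and GC content (0.92) and with each of the 3 uses of summed FPKM (0.79 to 0.82).

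The transcripts of Mfge8 differed more between the libraries than its sum did. Mouse Mfge8 is known to give a long form with a proline- and threonine-rich stretch and a short form without it. Mfge8-201 and Mfge8-202 differ in the annotation by exon 4 of Mfge8-201 (GRCm38 chr7:79143278-79143388, minus strand), 111 bases or 37 codons inside the coding part. The exon is shown whole, followed by the junctions that tell the transcripts apart, with the bases of exon 4 in capitals and the flanking exons in lower case, 5′ to 3′, from the GENCODE M21 transcripts.
Mfge8-201 exon 4: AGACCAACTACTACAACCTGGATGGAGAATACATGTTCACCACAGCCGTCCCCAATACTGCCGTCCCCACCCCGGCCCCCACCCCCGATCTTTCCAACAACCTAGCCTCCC
Mfge8-201 exon 3 into exon 4: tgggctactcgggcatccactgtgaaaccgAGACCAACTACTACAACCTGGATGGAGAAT
Mfge8-201 exon 4 into exon 5: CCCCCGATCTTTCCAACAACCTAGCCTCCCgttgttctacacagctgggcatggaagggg
Mfge8-202 without the exon: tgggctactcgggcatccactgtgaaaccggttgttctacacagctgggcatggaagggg

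Mfge8-201, which contains these 111 bases, had 124 reads in BMM-ABs against 99 for pOC-ABs and 415 for mOC-ABs. Mfge8-202, which skips them, had 50, 18 and 22 reads. Of the reads of both, Mfge8-201 held 71.3% (64.1 to 77.5) in BMM-ABs against 84.6% (77.0 to 90.0) for pOC-ABs and 94.97% (92.5 to 96.7) for mOC-ABs. The intervals of BMM-ABs and mOC-ABs did not overlap. Mfge8-209, annotated as a retained intron, went the other way, with 224, 77 and 41 reads. Its first exon (chr7:79142869-79143786) spans exons 4 and 5 with the intron between them and part of the intron before exon 4, so that 625 of its bases lie outside the exons of Mfge8-201.

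In BMM-ABs Mfge8-209 was the transcript with the most reads of the gene, at 53.2% (48.4 to 57.9), and Mfge8-201 held 29.5% (25.3 to 34.0). In pOC-ABs they held 31.7% (26.2 to 37.8) and 40.7% (34.7 to 47.0), which overlap, and in mOC-ABs 7.82% and 79.2%. The leading transcript by reads thus differed between BMM-ABs and mOC-ABs, while in pOC-ABs the lead was within counting error. Over the 6878 genes with at least 100 reads in every library and more than 1 listed transcript, the leading transcript differed in 17.5% in G1 and 17.3% in G2. The log2 ratio of the CPM of Mfge8-201 was 1.98 (1.69 to 2.28) in G2 and 2.01 (1.69 to 2.34) in G3, and that of Mfge8-209 was -2.21 (-2.73 to -1.72) in G2. Retained-intron transcripts of all genes took 5.22% of the mRNA reads in BMM-ABs against 4.21% for pOC-ABs and 3.85% for mOC-ABs. Over Mfge8 they took 57.0%, 40.7% and 13.6%, and reads shared between overlapping transcripts make these counts estimates.

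**Figure D4:**
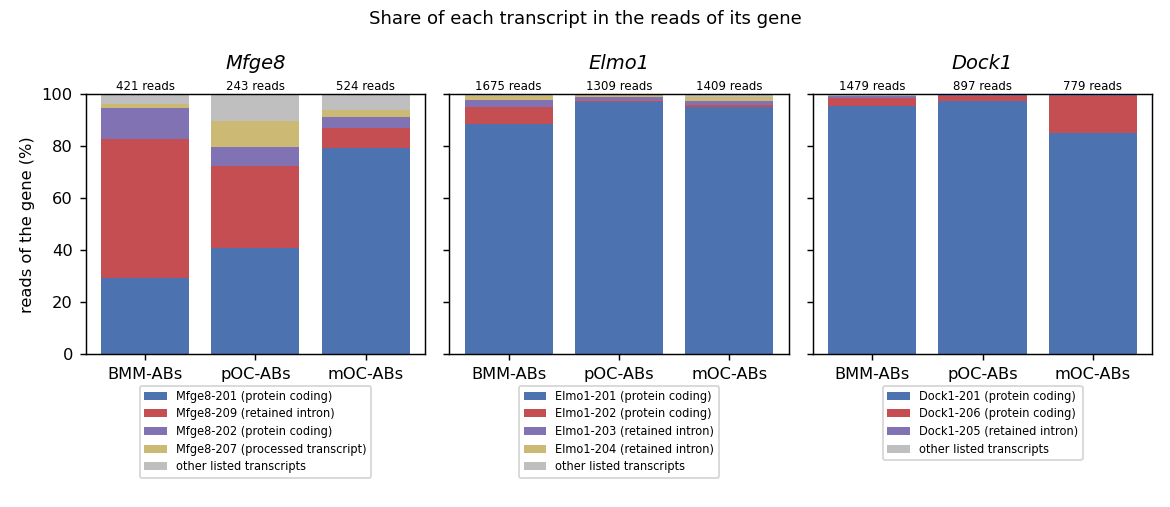
Share of the reads of Mfge8, Elmo1 and Dock1 that fell on each listed transcript (stacked bars, percent), with the reads of the gene above each bar. Mfge8-209 led in BMM-ABs and Mfge8-201 in mOC-ABs, and in pOC-ABs their shares overlapped within counting error. The share of Dock1-206 was 14.4% in mOC-ABs.

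Calr (ENSMUSG00000003814, chr8:84841850-84846934, minus strand) encodes calreticulin, a chaperone of the endoplasmic reticulum that on the surface of dying cells acts as an eat-me signal for LRP1. It had 4088 reads in BMM-ABs against 2433 for pOC-ABs and 3055 for mOC-ABs, or 449, 329 and 397 CPM. Calr followed the order of Lrp1, with a smaller range. The log2 ratio was -0.45 (-0.52 to -0.38) in G1, -0.18 (-0.25 to -0.11) in G2 and 0.27 (0.19 to 0.35) in G3. Calr-201 held between 95.1% and 98.2% of the reads. The retained-intron transcript Calr-202 had 67, 61 and 14 reads in the same order, and its log2 ratio in G2 was -2.02 (-2.97 to -1.17). Calr-204, also a retained intron, had 39, 33 and 27.

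Of the engulfment adaptors, Elmo1 did not differ in CPM between the libraries beyond counting error. Dock1 was lower in pOC-ABs and mOC-ABs than in BMM-ABs. ELMO1 and DOCK1 (also DOCK180) form a complex that activates the small GTPase Rac at the phagocytic cup. Elmo1 (ENSMUSG00000041112, chr13:20090596-20608353, plus strand) had 1675 reads in BMM-ABs against 1309 for pOC-ABs and 1409 for mOC-ABs, or 184, 177 and 183 CPM. Its log2 ratio was -0.05 in G1, -0.01 (-0.11 to 0.09) in G2 and 0.05 in G3, each with an interval that included 0. The sign of these small values changed with the scaling. Over 11 alternatives the Elmo1 value ran from -0.29 to 0.13 in G1 and from -0.26 to 0.14 in G2. Both ranges went past the counting interval at both ends. The low ends came with the reads of overlapping lncRNAs added.

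Within Elmo1, the short coding transcript Elmo1-202 had 112 reads in BMM-ABs against 6 for pOC-ABs and 13 for mOC-ABs, while the longer Elmo1-201 had 1483, 1271 and 1340. The retained-intron transcript Elmo1-203 had 40, 20 and 17. Elmo1-202 thus made up 6.69% (5.59 to 7.99) of the reads of the gene in BMM-ABs, 0.458% (0.210 to 0.996) in pOC-ABs and 0.923% (0.540 to 1.57) in mOC-ABs. The log2 ratio of its own CPM was -3.92 (-5.40 to -2.75) in G1 and -2.87 (-3.82 to -2.04) in G2. It departs from Elmo1-201 at the end of exon 14 (chr13:20342368-20342472, plus strand), where it reads on into the intron for 416 bases, and has 14 exons in place of 22. Its coding part has 1260 bases, against 2181. The last 30 shared bases are shown in lower case and the following 30, which differ, in capitals.
Elmo1-201: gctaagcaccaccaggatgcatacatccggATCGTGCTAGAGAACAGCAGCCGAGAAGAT
Elmo1-202: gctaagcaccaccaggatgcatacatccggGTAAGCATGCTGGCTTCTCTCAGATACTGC

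Dock1 (ENSMUSG00000058325, chr7:134670654-135173639, plus strand) had 1479 reads in BMM-ABs against 897 for pOC-ABs and 779 for mOC-ABs, or 162.5, 121.4 and 101.1 CPM. Dock1 was lower in pOC-ABs and lower again in mOC-ABs, each step beyond counting error in CPM. The log2 ratio was -0.42 (-0.54 to -0.30) in G1, -0.69 (-0.81 to -0.56) in G2 and -0.26 (-0.40 to -0.12) in G3, all within 2-fold. On summed FPKM the G3 difference was nearly gone, at -0.01. The longer Dock1-201 had 1411, 873 and 663 reads. Dock1-206, which ends within the intron after exon 21 of the 52 exons of Dock1-201, had 44, 18 and 112 reads, and Dock1-205, a retained intron, 14, 3 and 3. The share of Dock1-206 was 2.98% (2.22 to 3.97) in BMM-ABs and 14.4% (12.1 to 17.0) in mOC-ABs. The log2 ratio of its own CPM was 1.59 (1.07 to 2.13) in G2 and 2.58 (1.85 to 3.38) in G3. Gulp1 (chr1:44551511-44796838, plus strand), which encodes a cytosolic adaptor for LRP1-type receptors, has 6 annotated transcripts and none of them was listed.

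The tables of lncRNAs and circRNAs gave further readouts of the same loci. The table of lncRNAs held 10 transcripts within the Elmo1 gene body, with 392 reads in BMM-ABs against 62 for pOC-ABs and 51 for mOC-ABs. Of these, NONMMUT016546.2 (chr13:20605607-20608351) overlaps the last exon of Elmo1-201 and had 220, 2 and 2 reads, while Elmo1-201 had the nearly level counts given above. The table gives no strand, so reads of this transcript and of the Elmo1 mRNA cannot be told apart. The 9 transcripts outside the exons of Elmo1-201 had 172, 60 and 49 reads, lower in pOC-ABs and in mOC-ABs than in BMM-ABs for each of the 9. Scaled to the mRNA totals, the log2 ratio of their sum was -1.22 (-1.67 to -0.79) in G1 and -1.57 (-2.06 to -1.11) in G2.

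Dock1 contained 5 lncRNA transcripts, all outside the exons of Dock1-201, with 93 reads in BMM-ABs against 28 for pOC-ABs and 16 for mOC-ABs. Their summed log2 ratio was -1.43 (-2.10 to -0.81) in G1 and -2.30 (-3.16 to -1.52) in G2. Over all 5 transcripts, 4 were lower than in BMM-ABs in G1 and 5 in G2 after scaling. The share of all lncRNAs that were lower by any amount was not taken, so neither this count nor that of Elmo1 has a like background. The median lncRNA was also lower, at -0.21 in G1 and -0.79 in G2 over 9154 transcripts with at least 20 reads, of which 26.4% and 43.7% were below 0.5 times the BMM-AB level. The values for the Elmo1 and Dock1 introns were below these medians, and in both comparisons their intervals did not overlap those of the mRNA sums of Elmo1 and Dock1.

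**Figure D5:**
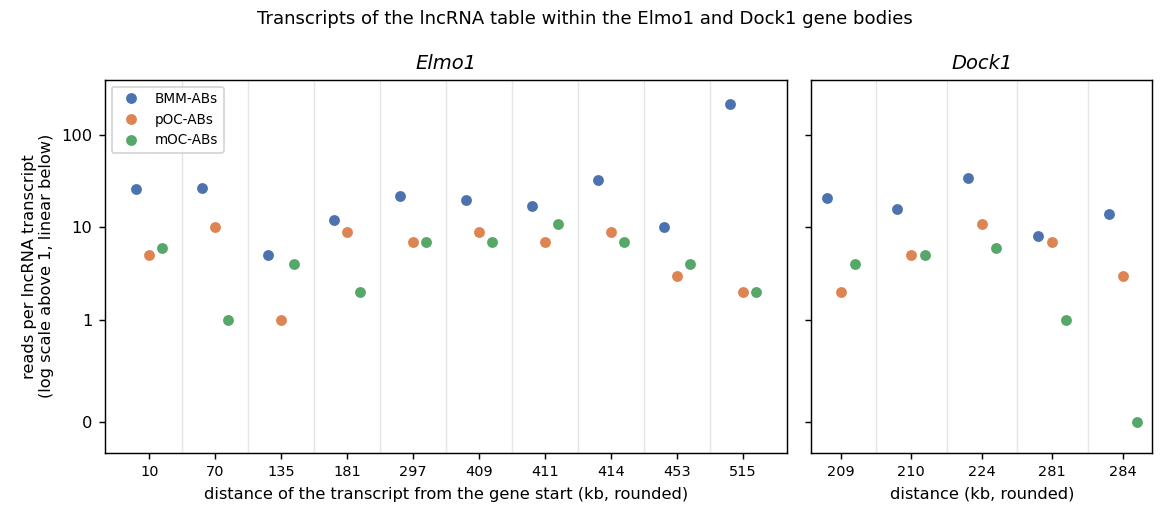
Reads of each lncRNA transcript within Elmo1 and Dock1 (log scale above 1), ordered by the distance of its start from the start of the gene in kb, in the 3 libraries. BMM-ABs had the most reads for all 10 transcripts in Elmo1 and all 5 in Dock1, and the transcript in the last exon of Elmo1 stood at 220 against 2 and 2.

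The table of circRNAs named a member as host gene for 2 back-splice junctions. The Calr junction, from exon 5 of Calr-201 alone (chr8:84844574-84844783, 210 bases), had 4 reads in BMM-ABs and 0 in both other libraries. The Elmo1 junction, from exons 9 to 13 of Elmo1-201 (chr13:20280812-20290493, 537 bases of exon), had 4 reads in mOC-ABs and 0 in both others. These counts are too few for a comparison between ABs, and no ratio is given. Their junctions are shown with the end of the last exon in lower case and the start of the first exon in capitals.
Calr circRNA: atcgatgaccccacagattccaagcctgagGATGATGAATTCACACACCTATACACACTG
Elmo1 circRNA: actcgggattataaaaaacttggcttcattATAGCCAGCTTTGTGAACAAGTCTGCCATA

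The members were set beside 114 other genes of apoptotic cell clearance, of which 93 had a row and 89 had at least 20 reads. These lists were chosen with earlier results of these data known, so the shares below describe the lists and test nothing. In G2, 3 of the 89 were above 2-fold and 17 below 0.5, or 22.5% in all against 13.4% of all genes, with a median log2 ratio of -0.31. In G1, 1 was above and 18 below, or 21.3% against 11.1%, and in G3 4 were above and 7 below, or 12.4% against 10.6%. Receptors for find-me signals, which draw phagocytes to dying cells, had 3 of 6 below 0.5 and none above 2 in G2, against 9.12% and 4.25% of all genes. P2ry6, a nucleotide receptor, had 847 reads in BMM-ABs against 317 for pOC-ABs and 160 for mOC-ABs. The fractalkine receptor Cx3cr1 had 429, 81 and 86, and the sphingosine 1-phosphate receptor S1pr1 315, 81 and 16.

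Other engulfment receptors had 6 of 12 below 0.5 and none above 2 in G2, where 9.12% of all genes were below 0.5 and 4.25% above 2. Itgb5, the partner of integrin αv in binding MFG-E8, had 445 reads in BMM-ABs against 124 for pOC-ABs and 128 for mOC-ABs, highest in BMM-ABs where Mfge8 was highest in mOC-ABs. The phosphatidylserine-binding receptors Cd300lf (168, 36 and 50 reads) and Cd300a (1365, 362 and 461) and the lipid receptor Trem2 (2823, 1116 and 1090) were likewise highest in BMM-ABs. The list of do-not-eat-me signals and their receptors had 3 of 6 below 0.5 beside the same 9.12%. Cd47, Sirpa and Cd24a did not pass, with G2 log2 ratios of -0.73, -0.57 and 0.13. Those below 0.5 were the inhibitory receptor Lilrb4a (2251, 843 and 419), the urokinase receptor Plaur (658, 188 and 161) and Lrpap1 (455, 184 and 167). Lrpap1 encodes the chaperone that keeps LRP1 from binding ligands early. Macrophage markers moved the same way, with 7 of 9 below 0.5 in G2, and their part in these lists was not tested.

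Engulfment signalling had 3 of 20 above 2 and 1 below 0.5 in G2, beside 4.25% and 9.12% of all genes. Dock5, a Rac exchange factor of the same family as Dock1, had 1602 reads in BMM-ABs against 1876 for pOC-ABs and 4138 for mOC-ABs, a log2 ratio of 1.61 (1.52 to 1.69) in G2, against -0.69 for Dock1. The tyrosine kinase gene Src had 118, 178 and 962 reads, a log2 ratio of 3.27 in G2, and the scaffold gene Bcar1 had 62, 126 and 186. Osteoclast markers moved with these, 9 of 12 being above 2 in G2, and their part was not tested. Of the 18 genes of phagosome maturation, none passed 2-fold in G2, and the same held for the 6 genes of phosphatidylserine exposure and find-me signals. Other bridging proteins and opsonins had a row for 4 of 13, and none of these passed 2-fold in G2. The genes of the response to engulfed cargo had 4 of 17 below 0.5 and none above 2, beside the same shares, namely the lipid exporters Abca1 (435, 92 and 69) and Abca7 (1386, 599 and 535), the nuclear receptor gene Ppard (947, 430 and 214) and the cytokine signalling inhibitor Socs3 (499, 221 and 99).

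Lrp1 and Mfge8 had the widest range of log2 CPM among members with at least 100 reads in every library. Over 7246 protein-coding genes with at least 500 reads, the genes nearest to Lrp1 in centred log2 CPM were Cntnap1, Slc2a3 and Furin, at distances of 0.0175, 0.0333 and 0.0361, and 27 genes lay within 0.1. Nearest to Mfge8 were Itgav (0.0516), Scel (0.0684) and Lpcat1 (0.0715), with 4 genes within 0.1. Itgav, which encodes integrin αv, had 392 reads in BMM-ABs against 235 for pOC-ABs and 483 for mOC-ABs. The likeness was measured over 3 libraries and describes these libraries only.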

How the data were processed

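The RNA of ABs was sequenced in 1 library for each of the 3 cell stages. The study's methods describe paired-end libraries from poly-T purified RNA and do not state whether strand was kept. The submitters' processing notes name FastQC, HISAT2, StringTie and GRCm38, and the counting settings are not given in the sources used here. The authors deposited read counts and FPKM per transcript in the mRNA and lncRNA tables, and, for circRNAs, junction read counts with a score, SRPBM, which the authors made by dividing those counts by 1 constant per library. The scores and the lncRNA FPKM entered no result.

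Transcripts were matched to GENCODE M21 (56440 of 56651), counts were summed per gene symbol, and CPM was taken over the mRNA total. The members and gene lists were chosen with earlier results of these data known. With 1 library per group no test was run. Ratios carry exact Clopper-Pearson intervals and shares Wilson intervals at 95%, and levels exact Poisson intervals of the summed reads, scaled to FPKM. PCR reads without molecular identifiers are not independent molecules, so these cover counting error only. A call was a ratio above 2 or below 0.5. Multimapping between transcripts makes transcript counts estimates. The ratios of single mRNA transcripts were not set against those of all transcripts, so how common such values are is not given.

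Named were all members, for each its 3 transcripts with the most reads and any with 20% of the reads in a library, up to 4 genes per list past 2-fold in G2 with at least 100 reads in a library, and the 3 nearest genes of 2 members. Acp5, Itgb3, Calcr, Ostm1, Clcn7, Csf1r and Col1a1, from the marker lists, and Tyro3, Cd47, Sirpa and Cd24a were named after their values were seen. Alternatives covered 4 scalings, 3 uses of FPKM, 3 choices of transcripts, a 1.5-fold limit and, chosen after seeing the data, centring on genes of like length and GC content. TMM factors came from edgeR 4.0.16 in R 4.3.3, the rest from Python 3.11.15, numpy 2.4.6, pandas 2.3.3 and scipy 1.17.1, whose ratios and intervals were checked on simulated counts.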

Additional observations from a re-analysis of the deposited data

Results flagged for a closer look

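Signals of the members in the lncRNA and circRNA tables, which lie outside the gene sums, stood above the 3 reads that a count of 0 allows. These were 4 junction reads of the Calr circRNA in BMM-ABs, 4 junction reads of the Elmo1 circRNA in mOC-ABs, and the lncRNA-table reads within the gene bodies of Lrp1 (26), Elmo1 (392) and Dock1 (93) in BMM-ABs. The 3 lncRNA transcripts within Lrp1 had 26 reads in BMM-ABs against 19 for pOC-ABs and 16 for mOC-ABs, which did not differ beyond counting error.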

How the results depend on the processing

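No paired analysis was possible because each group had 1 library. Of 231 alternative values of the members' log2 ratios, 159 stayed within the counting interval, 72 moved outside it and none turned the direction of a called ratio, and 17 of the 21 ratios kept their direction throughout. The exceptions were the 3 ratios of Elmo1 and that of Gas6 in G2. The number of members past 2-fold in G1 (1) became 3 with the total of both tables (Lrp1, Gas6 and Pros1), 3 at 1.5-fold, and 0 with the total of protein-coding genes without mitochondrially encoded genes and with FPKM without a pseudocount or with one of 1 or 0.1. In G2 (1) it became 2 with protein-coding transcripts only, with the leading transcript only and at 1.5-fold. In G3 (2) it became 3 at 1.5-fold. It fell to 1 with FPKM without a pseudocount or with one of 0.1, and to 0 with a pseudocount of 1. Relative to genes of like length and GC content it was also 1. Mfge8 was lost with each of these falls, and Pros1 also with the pseudocount of 1. The cause was not tested. The share of all genes past 2-fold became 19.5% (G1), 21.7% (G2) and 19.4% (G3) over every gene with at least 1 read, and 7.17% in G1 and 6.03% in G3 over genes with at least 100 reads. The total of both tables shifted the median of all genes in G1 from -0.02 to -0.22 and in G2 to -0.15. In G1, 44.4% of the calls were higher in pOC-ABs, against 27.2% with both tables and 54.5% when scaled to the total of protein-coding genes without mitochondrially encoded genes. The reads of Mertk, Axl and the circRNAs were few, and the cause was not tested.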
